A study of Homo sapiens with 6 samples.

Results

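The lysyl oxidase family, LOX and LOXL1 to LOXL4, was followed in A673 cells that carried an inducible cDNA of the LOX propeptide or the empty vector. The members were found by accession: every gene probe of the array whose transcript accession belongs to one of the 5 genes was taken, which gave 6 probes among the 50599 probes of the array and 5 genes among the 20503 that could be named. There were 6 samples, 3 of A673/TR/empty (the control cells) and 3 of A673/TR/LOX-PP, each measured on its own 1-colour Agilent array (Cy3). The parent line of both groups is A673, derived from an Ewing sarcoma, and both carried the tetracycline repressor (TR) that keeps the inserted vector silent until doxycycline is added. A673/TR/LOX-PP cells carried the cDNA of the propeptide (LOX-PP) and were treated with doxycycline for 72 h. The labels give this treatment, at 1 uM, for all 6 samples, but the text of the study states it clearly for A673/TR/LOX-PP alone, and whether the A673/TR/empty cultures were treated is unsettled. The study's text also states doxycycline doses in another unit (µg/ml) for its other culture experiments, so the dose of the labels is given as they print it. The sources used here do not say whether the RNA came from a polyclonal population or from a single clone. The study compared the groups to find genes that respond to LOX-PP, and the family of the propeptide is described within that comparison. The groups came from separate infections of A673/TR cells followed by selection. No A673/TR/LOX-PP sample without doxycycline was among the 6 samples. A difference between the groups can therefore not be told apart from a difference between the derived lines.

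Lysyl oxidases are secreted, copper-dependent amine oxidases that turn lysines of collagen and elastin into reactive aldehydes, from which the crosslinks of the extracellular matrix form. LOX is made as a proenzyme, and BMP1 and related proteases cut it outside the cell into the active enzyme and the propeptide, for which a growth-inhibiting activity has been described in several cancers. LOXL1 resembles LOX most and works on elastic fibres, whereas LOXL2, LOXL3 and LOXL4 carry scavenger receptor domains in front of the catalytic domain, and LOXL2 is known for oxidising collagen IV of basement membranes.

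LOX and LOXL1 were the members with lower values on all 3 LOX-PP arrays than on all 3 control arrays, and the sequences just before their RefSeq start sites are shown for that reason. Both are 250 bases from the RefSeq promoter table (build GRCh38.p14), read 5′ to 3′ on the strand of the gene and ending at the base before the start. The LOX window lies at chr5:122078260-122078509 on the minus strand and belongs to the outermost of 3 starts listed for the gene. The LOXL1 window lies at chr15:73926212-73926461 on the plus strand and belongs to the only start listed. Capitals mark the hypoxia response core ACGTG on either strand (read as CACGT on the other), a motif that overlaps itself in the E-box CACGTG.
LOX: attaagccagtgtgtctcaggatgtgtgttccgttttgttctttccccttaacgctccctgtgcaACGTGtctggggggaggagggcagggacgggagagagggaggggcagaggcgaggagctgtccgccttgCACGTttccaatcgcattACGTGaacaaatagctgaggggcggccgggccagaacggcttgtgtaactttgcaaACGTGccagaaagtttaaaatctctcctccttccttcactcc
LOXL1: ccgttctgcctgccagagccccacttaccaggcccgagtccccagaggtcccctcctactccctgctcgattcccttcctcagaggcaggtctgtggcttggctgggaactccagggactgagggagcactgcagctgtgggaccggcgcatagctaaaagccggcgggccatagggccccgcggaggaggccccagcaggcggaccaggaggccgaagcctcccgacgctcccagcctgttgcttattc
The LOX window held the core 4 times, with its first base 185, 116, 98 and 42 bases before the start, and the LOXL1 window held it 0 times. The windows before the other 2 LOX starts of the table, which lie further into the gene, held it 1 time each. Among 35116 windows of the same length in the table, 18.5% held the core at least once and 0.669% at least 4 times. The ETS core GGAA, on either strand, occurred 4 times in the LOX window and 3 times in the LOXL1 window, against a median of 3 over all windows, and the tandem form GGAAGGAA occurred in neither and in 3.06% of all windows. These matches describe letters in a window, and no binding was measured.

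The arrays differed in brightness, and the family was read with that in view. The share of gene spots flagged above background ran from 56.9% to 74.8% per array, negative control spots had net signals from 64.4 to 575, and no gene spot was saturated. Slide 1 and scan 1 held 5 of the 6 arrays, and LOX-PP replicate 1 was alone on slide 2 and scan 2. Levels are given as the log2 signal minus the 75th percentile of the array (called the log2 level). A total of 32647 probes above background on at least 3 arrays were tested with limma, the threshold being a Benjamini-Hochberg adjusted p under 0.05. All tested probes moved by a median of 0.13, or by -0.03 after quantile normalization, so each change below is the log2 level on the LOX-PP arrays minus that on the control arrays, relative to this median. The intervals are shifted by this median as well, whereas the p-values are for the difference before it was subtracted. Of the 14 Ewing sarcoma markers listed for the cells, 14 were above background on all 6 arrays. Of the epithelial markers, CDH1 was above background on no array and EPCAM, KRT8 and KRT18 on all 6. The summed level (linear, in units of the 75th percentile) of the 4 tested epithelial markers was 57.8 to 59.3 on the control arrays and 45.4 to 68.7 on the LOX-PP arrays, and that of the 6 blood and endothelial markers was 0.635 to 0.720 against 0.736 to 1.30. KRT18 made up nearly all of the epithelial sum, with a mean log2 level of 5.83 in the control cells and 5.72 in the LOX-PP cells. No marker of these other lists passed the threshold in limma, with 1 epithelial and 2 blood or endothelial markers at an unadjusted p under 0.05 and KRT19 alone called in the methods' t-test.

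Of the 5 members, 4 had a tested probe, and LOX, LOXL1, LOXL2 and LOXL3 were each above background on all 6 arrays with that probe. LOX and LOXL1 were both near 51.7% and 52.3% of the control level on the LOX-PP arrays, and neither change passed the threshold. LOXL2 and LOXL3 overlapped between the groups, and LOXL4 was near or under the background. In limma 0 of the 4 tested members passed the threshold, where 5.65% of all tested probes did. At an unadjusted p under 0.05 there were 2 members (LOX and LOXL1), both lower on the LOX-PP arrays, against 21.3% of all tested probes and 8.96% in that direction. The methods' t-test also passed 0 members after adjustment (1.73% of all tested probes), and so did limma after quantile normalization (5.79%). Of the 4 tested members, 2 had groups that did not overlap, both lower on the LOX-PP arrays, and 13.3% of all tested probes were of this kind. The median change of the 4 was -0.67, with 3 of the 4 below the median of all probes.

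**Figure D1:**
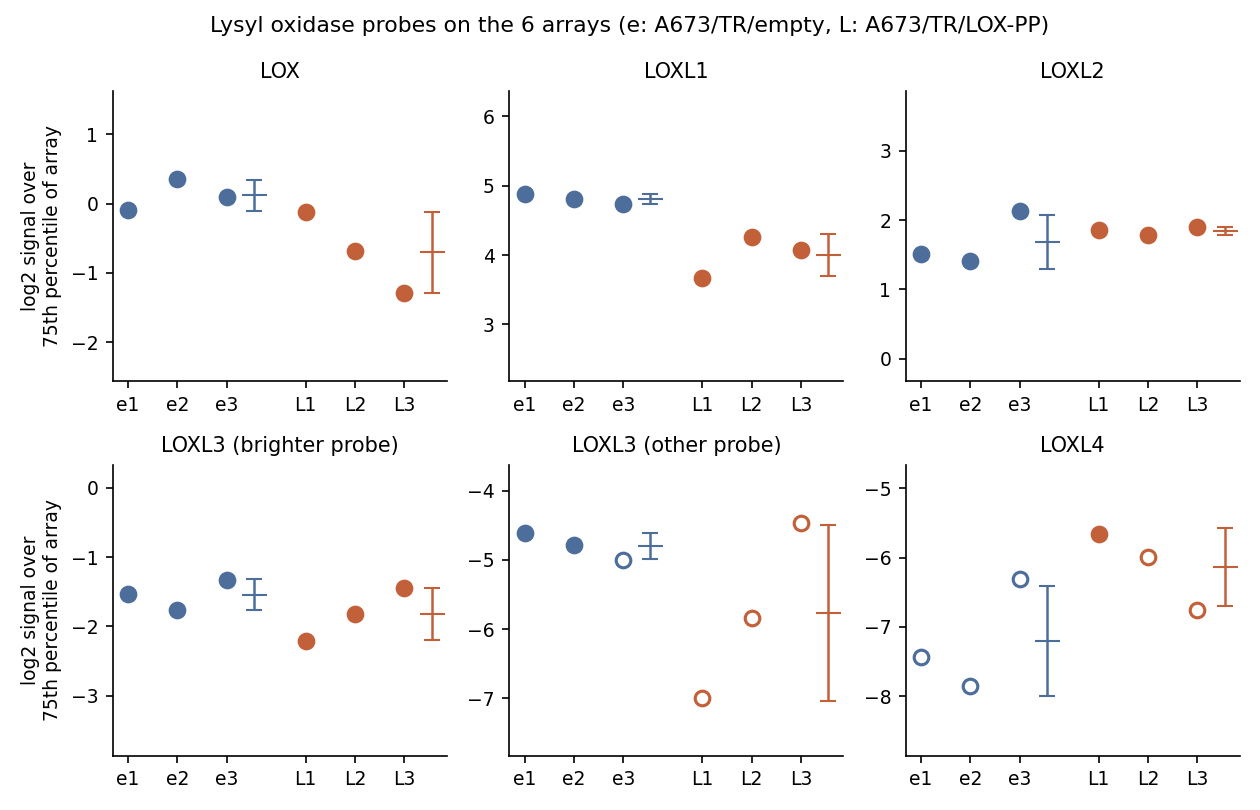
Log2 signal over the 75th percentile of the array (vertical axis, 1 scale length in every panel) for the 6 lysyl oxidase probes on the arrays of A673/TR/empty (e1 to e3, blue) and A673/TR/LOX-PP (L1 to L3, orange). Filled points were above background and open points were not, and the bars beside each group are its mean and SD (n = 3). The groups are apart for LOX and LOXL1 and overlap for the other 4 probes.

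LOX encodes the enzyme whose propeptide was expressed, so its probe is also the nearest check of the labels. A single probe, A_23_P122216 (transcript NM_002317), reads it, and the array carries this probe in 10 spots, all of which were above background on all 6 arrays. Control replicates 1 to 3 had background-corrected signals of 7197, 8047 and 6675, and LOX-PP replicates 1 to 3 had 2619, 3890 and 1364. After scaling, the log2 levels were -0.089, 0.36 and 0.10 in control replicates 1 to 3 and -0.12, -0.69 and -1.29 in LOX-PP replicates 1 to 3. All 3 LOX-PP arrays were below all 3 control arrays, but LOX-PP replicate 1 lay only 0.032 under control replicate 1, and the LOX-PP arrays were spread more widely than the controls. The mean log2 level was 0.12 ± 0.22 (SD, n = 3) in the control cells and -0.70 ± 0.58 (SD, n = 3) in the LOX-PP cells. The change was -0.95 (SE 0.33, 95% interval -1.74 to -0.16 without adjustment), which corresponds to 51.7% of the control level, and it failed the threshold (adjusted p = 0.218, limma). Of all tested probes, 6.63% changed by a more negative value. The arrays labelled LOX-PP were thus not higher at this probe, and since the files do not give the position of the probe relative to the propeptide cDNA, it does not check the labels. The directions given here rest on the labels. On slide 1 alone, without LOX-PP replicate 1, the change of LOX was -1.28 (adjusted p = 0.0695, limma), and without LOX-PP replicate 3 it was -0.66.

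The 10 spots of the LOX probe give the measurement error within an array. Their SD on the log2 scale ran from 0.038 to 0.073 over the 6 arrays, far below the SD of 0.58 among the LOX-PP arrays. The single spots of control replicate 1 ran from -0.19 to 0.017 and those of LOX-PP replicate 1 from -0.18 to -0.068, so the spots of LOX-PP replicate 1 lay within the range of those of control replicate 1. The spots of LOX-PP replicate 3, from -1.38 to -1.21, lay below every spot of the other 5 arrays. LOXL2 was also read by 10 spots, with an SD of 0.052 to 0.068 within an array.

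**Figure D2:**
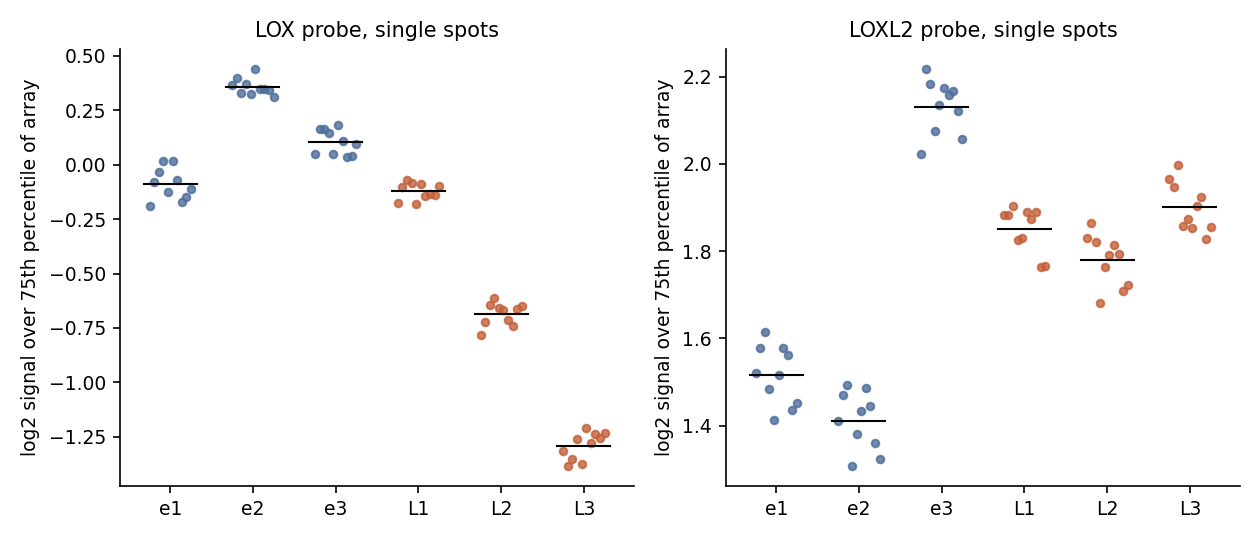
The 10 spots of the LOX probe (left) and of the LOXL2 probe (right) on each array, as log2 signal over the 75th percentile of the array (vertical axes start and end at different values). Points are single spots, black lines the mean of an array, e1 to e3 (blue) A673/TR/empty and L1 to L3 (orange) A673/TR/LOX-PP. For LOX the spots of L1 lie within the range of those of e1, and those of L3 are the lowest. For LOXL2 the spots of e3 are the highest and the LOX-PP arrays lie between the control arrays.

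LOXL1, the member that acts with fibulin-5 on elastic fibres, was read by probe A_33_P3354464 (transcript NM_005576) in 1 spot per array. Its signal was 225772, 175144 and 166242 on control replicates 1 to 3 and 36214, 119649 and 56377 on LOX-PP replicates 1 to 3. The log2 levels were 4.88, 4.80 and 4.74 against 3.67, 4.26 and 4.08. The control arrays were close together, all 3 LOX-PP arrays lay below them, and the gap between the groups was 0.48. The mean log2 level was 4.81 ± 0.071 (SD, n = 3) in the control cells and 4.001 ± 0.30 (SD, n = 3) in the LOX-PP cells. The change of LOXL1 was -0.93 (SE 0.23, 95% interval -1.49 to -0.38 without adjustment), or 52.3% of the control level. This was larger than the spread within either group, and it did not pass the threshold over all probes (adjusted p = 0.103, unadjusted p = 0.0106, limma). On slide 1 alone the change was -0.80 (adjusted p = 0.102, limma). A transcript antisense to LOXL1, LOXL1-AS1, had groups that overlapped, with a change of -0.052 (adjusted p = 0.932, limma), or 0.23 on slide 1 alone. LOXL2-AS1, antisense to LOXL2, was above background on 1 control array and all 3 LOX-PP arrays, and its groups also overlapped, with a change of 1.19 (adjusted p = 0.300, limma), or 1.83 on slide 1 alone.

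LOXL2, which oxidises collagen IV, was read by probe A_23_P111995 (transcript NM_002318). The log2 levels were 1.52, 1.41 and 2.13 on control replicates 1 to 3 and 1.85, 1.78 and 1.90 on LOX-PP replicates 1 to 3. Control replicate 3 was the highest array, and the 3 LOX-PP arrays fell between it and the other control arrays. The mean was 1.69 ± 0.39 (SD, n = 3) against 1.84 ± 0.061 (SD, n = 3). The change was 0.030 (SE 0.26, 95% interval -0.58 to 0.64, adjusted p = 0.770, limma). The interval leaves room for a rise or a fall of up to about that size, and the sign turned under several settings, to -0.0096 on slide 1 alone for example.

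LOXL3, which is known from cartilage and palate formation, had a pair of probes for the transcript NM_032603. The brighter, A_24_P88763, had log2 levels of -1.53, -1.76 and -1.33 on control replicates 1 to 3 and -2.20, -1.81 and -1.45 on LOX-PP replicates 1 to 3. The groups overlapped, with LOX-PP replicate 1 the lowest array. The change was -0.41 (SE 0.27, 95% interval -1.05 to 0.23, adjusted p = 0.596, limma), and -0.26 on slide 1 alone. The other probe, A_23_P39799, was above background on 2 of the 3 control arrays and on 0 of the 3 LOX-PP arrays and was not tested. Its log2 levels were -4.62, -4.79 and -5.00 on control replicates 1 to 3 and -6.99, -5.85 and -4.46 on LOX-PP replicates 1 to 3, the last being the highest value although not above the background of its array. No fold is given for this probe, since 4 of its 6 values were not above background.

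LOXL4 was read by probe A_24_P406754 (transcript NM_032211), which was above background on 0 of the 3 control arrays and on LOX-PP replicate 1 alone. The log2 levels were -7.44, -7.86 and -6.31 on control replicates 1 to 3 and -5.66, -5.99 and -6.76 on LOX-PP replicates 1 to 3. The background of an array limits these values, so the probe was not tested. No fold or direction is given for LOXL4.

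The change of LOX was set against that of each other tested member within the same array in 3 comparisons. The difference of changes (LOX minus the other member) was -0.016 for LOXL1, -0.98 for LOXL2 and -0.54 for LOXL3, with p = 1, p = 0.2 and p = 0.4 in 2-sided exact permutation tests over the arrays. The smallest p that such an exact test allows with 3 arrays against 3 is 0.1, and after adjustment over the 3 comparisons the lowest p was 0.6 (exact permutation tests). The difference between LOX and LOXL1 lay anywhere from -0.47 to 0.32 when 1 array was left out, so these members could not be ordered by the size of their change. The LOX minus LOXL1 values of single arrays ran from -5.37 to -3.79 in the LOX-PP cells and from -4.97 to -4.44 in the control cells. LOX-PP replicate 1 had the highest LOX and the lowest LOXL1 of its group, and LOX-PP replicate 3 had the lowest LOX.

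**Figure D3:**
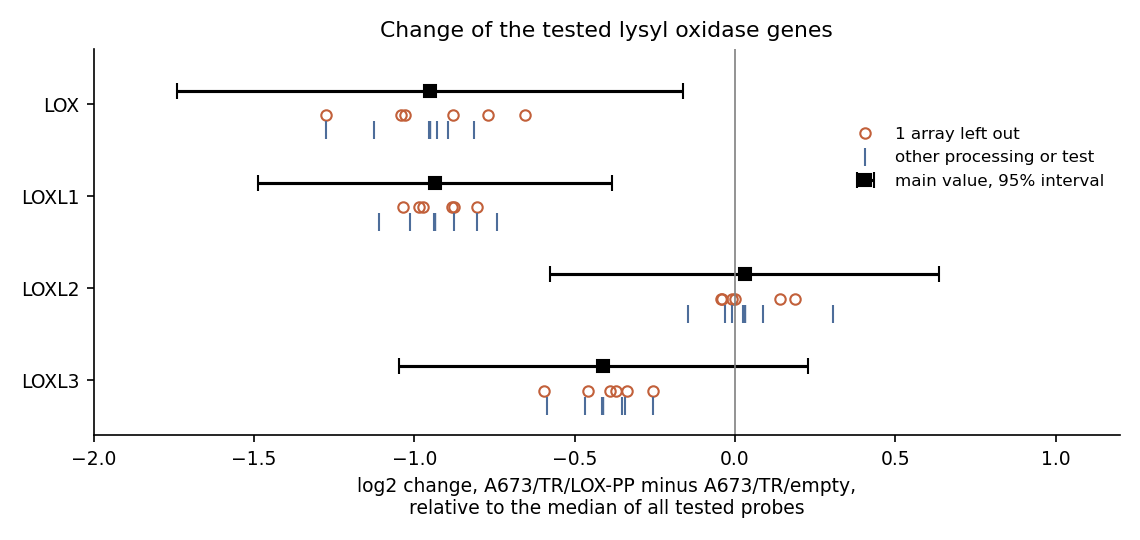
Change of the 4 tested lysyl oxidase genes (horizontal axis, log2, A673/TR/LOX-PP minus A673/TR/empty, relative to the median of all 32647 tested probes). Squares with bars are the values reported with their 95% interval, open circles the value with 1 array left out, and ticks the value under another normalization, filter, block or test. LOX and LOXL1 stay below 0 in all 16 distinct alternatives, LOXL3 as well, and LOXL2 lies on both sides of 0. Some ticks equal the reported value by construction, such as those of the replicate block and the methods' t-test.

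The probes whose log2 levels followed each member most closely over the 6 arrays are given as a description, since the arrays share their brightness and their groups. For LOX these were ITPRIP (Pearson r = 0.995), KNOP1 (r = 0.994) and PRR4 (r = 0.982). For LOXL1 they were NRG1 (r = 0.999), a ligand of ERBB receptors, ADORA2A (r = 0.998), an adenosine receptor, and CITED1 (r = 0.998), a transcriptional coregulator. The last 3 had changes of -1.44, -2.67 and -2.08 (adjusted p = 0.0494, 0.0258 and 0.0234, limma). They were picked for likeness to LOXL1, whose groups did not overlap, so these p-values are no separate evidence. For LOXL2 they were IL4I1 (r = 0.994), PNKD (r = 0.992) and ICAM1 (r = 0.990), and for LOXL3 they were BMP2K (r = 0.997), PSD4 (r = 0.997) and PTAFR (r = 0.996). The probes picked for LOX, LOXL2 and LOXL3 all missed the threshold (adjusted p from 0.265 to 0.686, limma). Such values are common with 6 arrays, as the 100th probe in the order still had r = 0.936 for LOX and r = 0.982 for LOXL1.

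The genes that the lysyl oxidases work with were read from 7 lists with 80 genes, of which 78 had a tested probe. Of these, 14 passed the threshold, 12 lower and 2 higher on the LOX-PP arrays, where 7.05% of all 16601 tested genes passed it (3.36% lower and 3.69% higher) with a median change of -0.093. The lower ones were mostly collagens and the proteins that place or process the enzymes, and no copper transport gene was among them. Of the 14, 3 passed the threshold without any single array (COL1A2, COL2A1 and POSTN). The other 11 failed it without control replicate 1, and the same number did so without control replicate 2, and over all single arrays left out the adjusted p of these 11 was at most 0.203 (limma). Leaving out control replicate 3 lost 6 of them, and leaving out LOX-PP replicate 1, 2 or 3 lost 1, 8 or 5. Of the 3 that held in limma, COL1A2 and COL2A1 also passed the threshold by the test that the methods name, whereas POSTN missed it. COL2A1 and POSTN were above background on 1 and 2 of the 3 LOX-PP arrays, so the background limits the size of their change.

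The substrates of the family, fibrillar and basement membrane collagens and elastin, had 5 of 9 tested genes lower and 0 higher, with a median change of -1.18. COL1A2, the second chain of type I collagen, had log2 levels of 5.22, 5.22 and 5.05 on control replicates 1 to 3 and 2.41, 2.28 and 2.04 on LOX-PP replicates 1 to 3. It fell by 3.04 (SE 0.21, adjusted p = 0.00123, limma), or 8.25-fold. COL1A1, the chain it is assembled with, had levels of 2.22 ± 0.13 (SD, n = 3) and 2.88 ± 0.30 (SD, n = 3), a change of 0.53 that missed the threshold (adjusted p = 0.175, limma). COL2A1, the collagen of cartilage, changed by -2.81 (adjusted p = 0.00186, limma), although only 1 of the 3 LOX-PP arrays measured it above background. COL4A1 fell by 1.28 (adjusted p = 0.0354, limma). COL4A2 and COL5A2, named here after their values were seen, fell by 1.17 and 1.18 (adjusted p = 0.0317 and 0.0434, limma). COL3A1 changed by -1.49 without passing the threshold (adjusted p = 0.0798, limma). The brighter probe of elastin (ELN) changed by -0.039 and the other by 1.19 (adjusted p = 0.906 and 0.0826, limma).

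Among the proteins that process the propeptide or place the enzymes in the matrix, 5 of 13 tested genes were lower and 0 higher, with a median change of -0.43. BMP1, the protease that releases the LOX propeptide, had a log2 level of -1.63 ± 0.41 (SD, n = 3) in the control cells and -0.80 ± 0.045 (SD, n = 3) in the LOX-PP cells, and its change of 0.71 missed the threshold (adjusted p = 0.126, limma). TLL1, a protease of the same family, fell by 1.69 (adjusted p = 0.0189, limma) and by 2.22 on its other probe. PCOLCE2, which enhances BMP1-type proteases on procollagen, fell by 1.86 (adjusted p = 0.0144, limma). TLL1 and PCOLCE2 were named after their values were seen. POSTN (periostin), which binds BMP1 and supports the activation of LOX, had log2 levels of 0.12, 0.70 and -0.90 on control replicates 1 to 3 and -5.03, -4.71 and -4.20 on LOX-PP replicates 1 to 3. It changed by -4.75 (SE 0.44, adjusted p = 0.00314, limma), the lowest value of the 7 lists, and 2 of the 3 LOX-PP arrays measured it above background. FN1 (fibronectin), another scaffold of that activation, changed by 1.02 (adjusted p = 0.0602, limma), and passed the threshold with quantile normalization (adjusted p = 0.0387, limma). FBLN5 (fibulin-5), the partner of LOXL1 on elastic fibres, fell by 2.08 (adjusted p = 0.0278, limma). FBN1 (fibrillin-1), which builds the microfibrils under elastin, changed by -2.86 (adjusted p = 0.0174, limma), and 1 of the 3 LOX-PP arrays measured it above background. With quantile normalization FBN1 missed the threshold (adjusted p = 0.0597, limma).

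The remaining lists held single calls or none, with median changes of -0.52 for the hydroxylases and glycosyltransferases, -0.14 for the propeptide partners, -0.23 for the regulators and 0.66 for the other amine oxidases and transglutaminases. In the same order 12.5%, 8.33%, 5% and 20% of the genes were called, against 7.05% of all tested genes. Each share rests on 1 gene, and those of the partners and the regulators were near that of all genes. The copper supply list (transporters, chaperones and metalloreductases) had 0 of 11 genes past the threshold in limma and 2 at an unadjusted p under 0.05, and also 0 in the methods' t-test and with quantile normalization, with a median change of -0.022. ATP7A, the pump that loads copper into secreted enzymes, changed by 0.77 on its brightest probe (adjusted p = 0.168, limma) and by 0.092 to 0.24 on the other 3. Of 8 lysyl and prolyl hydroxylases and collagen glycosyltransferases, 1 was lower: PLOD2, which hydroxylates the telopeptide lysines that the oxidases act on, fell by 1.59 (adjusted p = 0.00933, limma). Of 12 genes reported as partners or targets of the propeptide, MMP9 alone was called, and fell by 1.75 (adjusted p = 0.00735, limma). Of 20 genes known to regulate LOX or LOXL2, EPAS1 (HIF-2α) alone was called, and rose by 2.14 (adjusted p = 0.0222, limma), with 2 of the 3 control arrays above background. With quantile normalization EPAS1 missed the threshold (adjusted p = 0.0509, limma). The genes of the Ewing sarcoma fusion in this list, EWSR1 and FLI1, missed the threshold (adjusted p = 0.287 and 0.620, limma). EWSR1 changed by -0.63 on its brightest probe and by -0.040 and 0.056 on the others, and FLI1 by -0.34. The positions of these probes are not given, so their values are not taken as a level of the fusion transcript. Of 5 other amine oxidases and transglutaminases, 1 was higher, the copper amine oxidase AOC3, by 2.14 (adjusted p = 0.0243, limma), with 2 of the 3 control arrays above background.

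**Figure D4:**
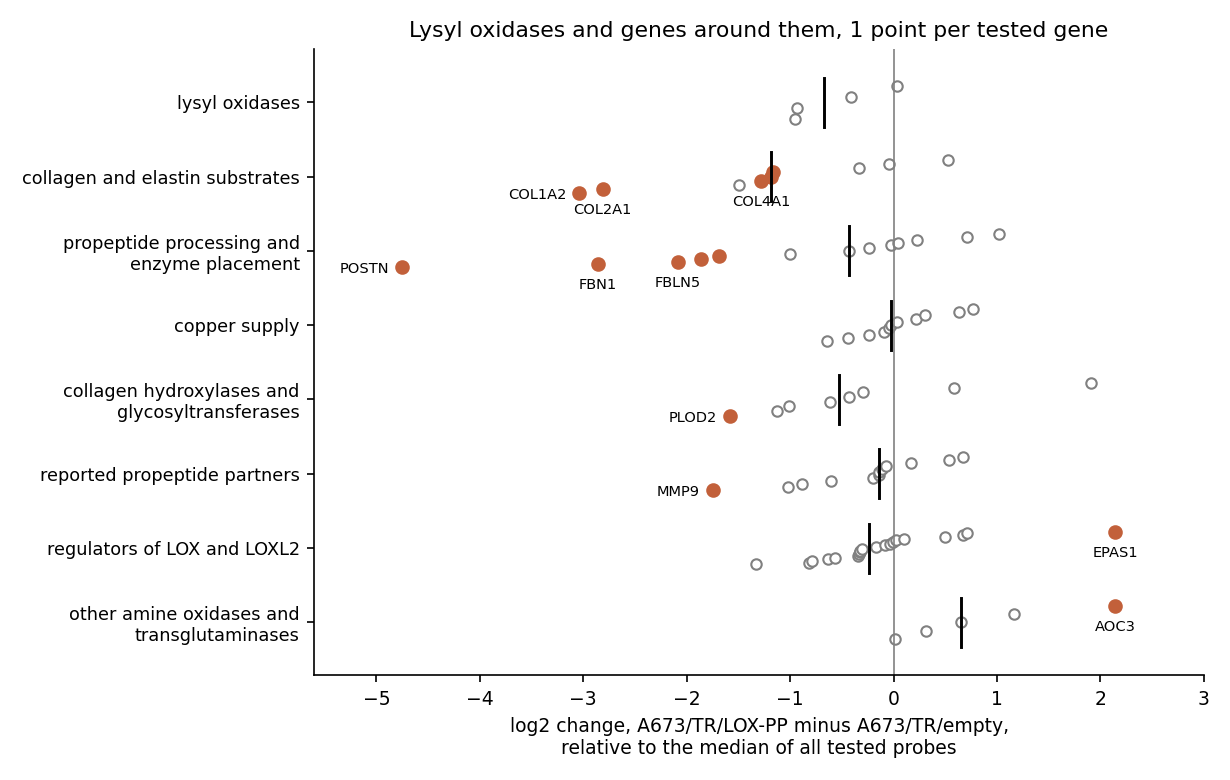
Change of each tested gene of the lysyl oxidase family and of the 7 lists around it (horizontal axis, log2, A673/TR/LOX-PP minus A673/TR/empty, relative to the median of all tested probes). Each point is a gene by its brightest probe, orange points passed an adjusted p under 0.05, and black lines are list medians. The collagen substrates and the processing list reach furthest to the left, down to -4.75 for POSTN, while no lysyl oxidase passed the threshold.

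Among the markers of other cell types, fibroblast markers alone passed the threshold in limma, 1 higher and 2 lower, and the rest of those tested missed it. Of the 10 fibroblast markers, 8 had a tested probe and COL6A3 was above background on no array. POSTN and COL3A1 are also on the lists around the family, so the fall of POSTN is the same call as above. FAP rose by 3.52 (adjusted p = 0.00115, limma), with 2 of the 3 control arrays above background, whereas LUM and POSTN changed by -2.42 and -4.75 (adjusted p = 0.0193 and 0.00314, limma), with LUM above background on 2 of the 3 control arrays and 1 of the 3 LOX-PP arrays. With quantile normalization LUM missed the threshold (adjusted p = 0.0666, limma). The summed level of the 8 markers ran from 48.9 to 51.1 on the control arrays and from 41.8 to 64.0 on the LOX-PP arrays, in units of the 75th percentile. THY1 made up most of this sum, with a mean log2 level of 5.16 in the control cells and 5.25 in the LOX-PP cells. The sum therefore hardly reflects FAP, LUM or POSTN. Among the Ewing sarcoma markers, CCK alone passed the threshold and fell by 2.67 (adjusted p = 0.0102, limma). That was 7.14% of this list, near the 7.05% of all tested genes. In bulk RNA fewer cells of a kind and less RNA per cell cannot be told apart, and the part of these markers in the lysyl oxidase and collagen values was not tested.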

How the data were processed

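The authors hybridised total RNA of 6 samples to Agilent SurePrint G3 arrays and deposited, per the file headers, the intensity of every spot after background correction by Feature Extraction (version 10.7.3.1) with its detection flags. They also deposited a table of log2 values, which matched the values computed here within 0.0059 after centring on the median of each probe. The methods name no normalization. From the deposited intensity, the log2 signal of a probe was the mean over its spots without outliers, less the 75th percentile over all probes of the array. Control spots were not used. A probe counted as above background on an array with at least 1 spot flagged so. Genes were named through RefSeq accessions (28174 of 50599 probes). The 32647 probes above background on 3 or more arrays were fitted in limma (3.58.1, under R 4.3.3) with no block. The p-values, for the difference before the median change was subtracted, were adjusted over all of these probes. The probe with the highest mean signal stood for a gene. The fit was tested on simulated data with known changes.

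Named were the 5 members with every probe, of each list up to 3 genes past the threshold with the largest change, BMP1, COL1A1, COL1A2, COL3A1, ELN, FN1, POSTN and ATP7A, and for each tested member the 3 named probes most like it. EWSR1, FLI1, the markers CDH1, EPCAM, KRT8, KRT18, KRT19 and COL6A3 and the antisense transcripts fall outside this rule and were named after their values were seen. The planned comparison of LOX with LOXL4 is not reported, because LOXL4 was above background on 1 of the 6 arrays. The members and lists were chosen with earlier results of these data known, so their direction is not independent evidence. The design text of the series calls the samples of a group independent experiments. The number of arrays limits the precision. The alternatives tried were the authors' values, quantile normalization, centring on the median of probes above background, normexp (offset 50, on the median spot signal, as the mean signal was not in the files), a common floor, other filters, the slide and the replicate number as blocks, the methods' t-test, the median over spots, and leaving out each array. LOXL4 and the dimmer LOXL3 probe were not tested. RefSeq promoter windows were matched by gene symbol (4 of the 5 members) and are of a later build (GRCh38.p14) than the array design. Sequences of LOXL2 and of the probes are not analysed here.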

Additional observations from a re-analysis of the deposited data

How the results depend on the processing

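The slide block and leaving out LOX-PP replicate 1, alone on its slide, were the same fit and are counted once. LOX, LOXL1 and LOXL3 kept their direction in 16 of 16 distinct alternatives, and no tested member passed the threshold in any of them. In some of these the change relative to the median could not differ from its main value beyond rounding, so its direction there adds no support. They are the authors' values, centring on the median of probes above background, the replicate block and the methods' t-test. LOX ranged from -1.28 to -0.66 (adjusted p from 0.0695 to 0.532, limma or the methods' t-test), with an unadjusted p under 0.05 in 8 of the 16, and LOXL1 from -1.11 to -0.74 (adjusted p from 0.0705 to 0.368) with such a p in 16. LOXL3 ranged from -0.60 to -0.26. LOXL2 changed sign in 5 of the 16, to -0.032 with normexp, -0.15 with no filter and -0.0096 with the slide as a block, and ranged from -0.044 to 0.19 when 1 array was left out. The cause was not tested. When 1 array was left out, the difference of changes between LOX and LOXL1 ranged from -0.47 to 0.32, that between LOX and LOXL2 from -1.27 to -0.66, and that between LOX and LOXL3 from -1.02 to -0.059. Over the whole array 1844 probes passed the threshold, compared with 516 with no filter, 566 in the methods' t-test and 850 with a replicate block, and from 407 to 2054 when 1 array was left out (407 without control replicate 1 and 443 without control replicate 2). Of the list genes 14 passed it, compared with 4 with no filter, 6 in the methods' t-test and 9 with the replicate block, and from 3 to 14 when 1 array was left out. Of the 6 in the methods' t-test, 5 were among the 14. Same-numbered arrays of the 2 groups deviated from their group means with correlations of 0.26, -0.38 and 0.22, so that the numbers were not taken as a pairing. The replicate block left LOX at an adjusted p of 0.282 and LOXL1 at 0.198 (limma) and changed no member's side of the threshold. LOXL4 and the dimmer LOXL3 probe were limited by the background of the arrays.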
